A study of Bombyx mori with 3 samples.

Results

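The proteins of the cytosolic ribosome were followed in the fat body of silkworm larvae that had eaten an insecticide. Probes were chosen by their description on the array: those naming a ribosomal protein or a ribosomal phosphoprotein P were taken, and those naming mitochondria, a kinase, ribosome biogenesis, a methyltransferase or ubiquitin were left out. This gave 98 of the 23229 gene probes, of which 88 were bright enough to be tested.

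The larvae were Bombyx mori of the inbred strain p50, of both sexes, on day 3 of the fifth instar. Treated larvae ate mulberry leaves that had been dipped in phoxim, an organophosphate insecticide that blocks acetylcholinesterase, in a solution of 4 µg/mL. Leaves for control larvae were dipped in water instead, and both groups were dissected after 24 h. Total RNA of treated and control fat bodies was hybridised together on each of 3 two-colour arrays, described in the labels as biological replicates from experiments of 30 larvae each (the labels do not say whether RNA of several larvae was pooled). The p-values below measure only the spread between these 3 arrays.

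A cytosolic ribosome joins a small subunit, which reads the messenger RNA, to a large subunit, which links amino acids and releases the chain through an exit tunnel. Each subunit holds many small basic proteins around ribosomal RNA, and a flexible stalk of acidic proteins on the large subunit recruits the elongation factors. In insects the fat body makes most of the proteins of the hemolymph, so its cells carry many ribosomes, and ribosomal protein messages are among the most abundant in the cell.

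Many of the members were bright spots, which describes the probes and does not rank the messages. They made up 35 of the 100 brightest tested probes and 55 of the 200 brightest, although they were 88 of 6154 tested in all. Control RNA lay above the background of the blank spots on all 3 arrays for each of the 88 probes, and phoxim RNA for 85. The exceptions were weak probes for P0 (sw10512), S23 (sw13466) and S7 (sw21701), for which phoxim RNA passed on 2 arrays. The 10 members that could not be tested had no intensity above 216 in any RNA and were described as S5, S24, L5, L7, L9, L30, L23 (3 probes) and 1 protein without a number. For L7, L23, S5 and S24 another probe was bright and entered the test, whereas L5, L9 and L30 had no tested probe.

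The description rule admitted some probes that other annotation does not place in the cytosol. Of the 98 members, 83 were assigned to the ribosome by the array's other annotation columns. For 7 of the tested probes those columns, or the current RefSeq symbol, name a mitochondrial ribosomal protein. They were described as L4 (sw22275), L22 (sw20069), L27 (sw14128), L41 (sw05996), S33 (sw12624), S34 (sw03622) and L7/L12 (sw09737, RefSeq mRpL12). The other 81 tested probes stood for 70 proteins, 43 probes for the large subunit, 33 for the small subunit and 5 for the acidic stalk. Counts below cover all 88 probes unless the 81 are named.

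Values are log2 ratios of phoxim over control after normalization within each array, and intensities are the authors' background-subtracted values of the 2 channels before it. The intensities were not scaled between dyes or arrays. The file header of replicate 2 places phoxim RNA in Cy3 and control RNA in Cy5, the reverse of replicates 1 and 3 and of the labels, and the header was followed. As turned by the header, the members' ratios in replicate 2 correlated with those in replicate 3 at r = 0.45 across the 88 probes, and with those in replicate 1 at r = 0.07. Replicates 1 and 3, which share a dye order, correlated at r = 0.36. Over all 6154 probes the values were 0.27, 0.03 and 0.35 in the same order, and probes are not independent replicates. Turned as the labels have it, replicate 2 would correlate with replicate 3 at r = -0.45 over the members.

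No ribosomal protein probe passed the test. With limma, 0 of 88 members had a Benjamini-Hochberg adjusted p under 0.05, where 0% of all 6154 tested probes did, and the smallest adjusted p of a member was 0.39. At an unadjusted p under 0.05, 12 members (13.6%) were lower in phoxim RNA, against 4.81% of all tested probes. In the higher direction 1 member (1.14%) reached that level, against 6.13%. The 12 became 0 without replicate 3 (1.38% of all probes) and 7 (7.95%) without replicate 2 (3.82% of all probes). They became 2 (2.27%) with the authors' deposited ratios (4.58% of all probes) and 0 with the labelled dye order of replicate 2 (1.06% of all probes). The 1 higher member became 0 without replicate 1 or replicate 2. None of the genes described below therefore changed by the test, and their values are given as measured. In RNA of a whole organ, less RNA per cell and fewer cells of a type cannot be told apart.

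After loess the centre of the distribution lay near that of all probes. The members entered the loess curve and were 35 of the 100 brightest tested probes. They thus helped set the curve they were measured against, and whether their closeness to 0 partly comes from it was not tested. The median log2 ratio of the 88 members was -0.04, with quartiles of -0.41 and 0.12, and that of all tested probes was 0.00. With each array centred on its median in place of loess the members' median was 0.29 and that of all probes 0.24, and with the authors' deposited ratios they were 0.18 and 0.09, so the sign of the members' median depends on the normalization. Replicate 1 gave a median of -0.20 for the members and 0.13 for all probes, replicate 2 gave -0.03 and -0.06, and replicate 3 gave -0.03 and 0.00. The members thus lay below all probes in replicate 1 and near them in the other arrays. Without the 7 probes of mitochondrial annotation the medians were -0.20, -0.04 and -0.13 by array, so replicate 3 was then lower too, and -0.07 overall. Values varied less between arrays than for most genes, with a median SD of 0.37 against 0.49 for all tested probes. Means lay below 0 for 50 of 88 members (56.8%), against 49.7% of all probes. All 3 arrays gave a lower value in phoxim RNA for 23 members (26.1%), against 17.1% of all probes, and a higher value for 12 (13.6%), against 18.2%. With the deposited ratios the direction turned, with 7 lower (7.95%) and 29 higher (33.0%), against 15.9% and 24.1% of all probes. With the labelled dye order the counts were 12 (13.6%) and 8 (9.09%), against 9.51% and 15.4%. Over 2 arrays, without replicate 1, 30 members (34.1%) were lower and 25 (28.4%) higher, against 33.7% and 28.8% of all probes, so the members then matched all probes. Without replicate 2 they were 35 (39.8%) and 20 (22.7%), against 26.6% and 33.6%. The 23 were all among the 81 probes of cytosolic proteins, of which 8 were higher on all arrays. Of the 7 probes with mitochondrial annotation, 0 were lower and 4 were higher on all arrays.

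**Figure D1:**
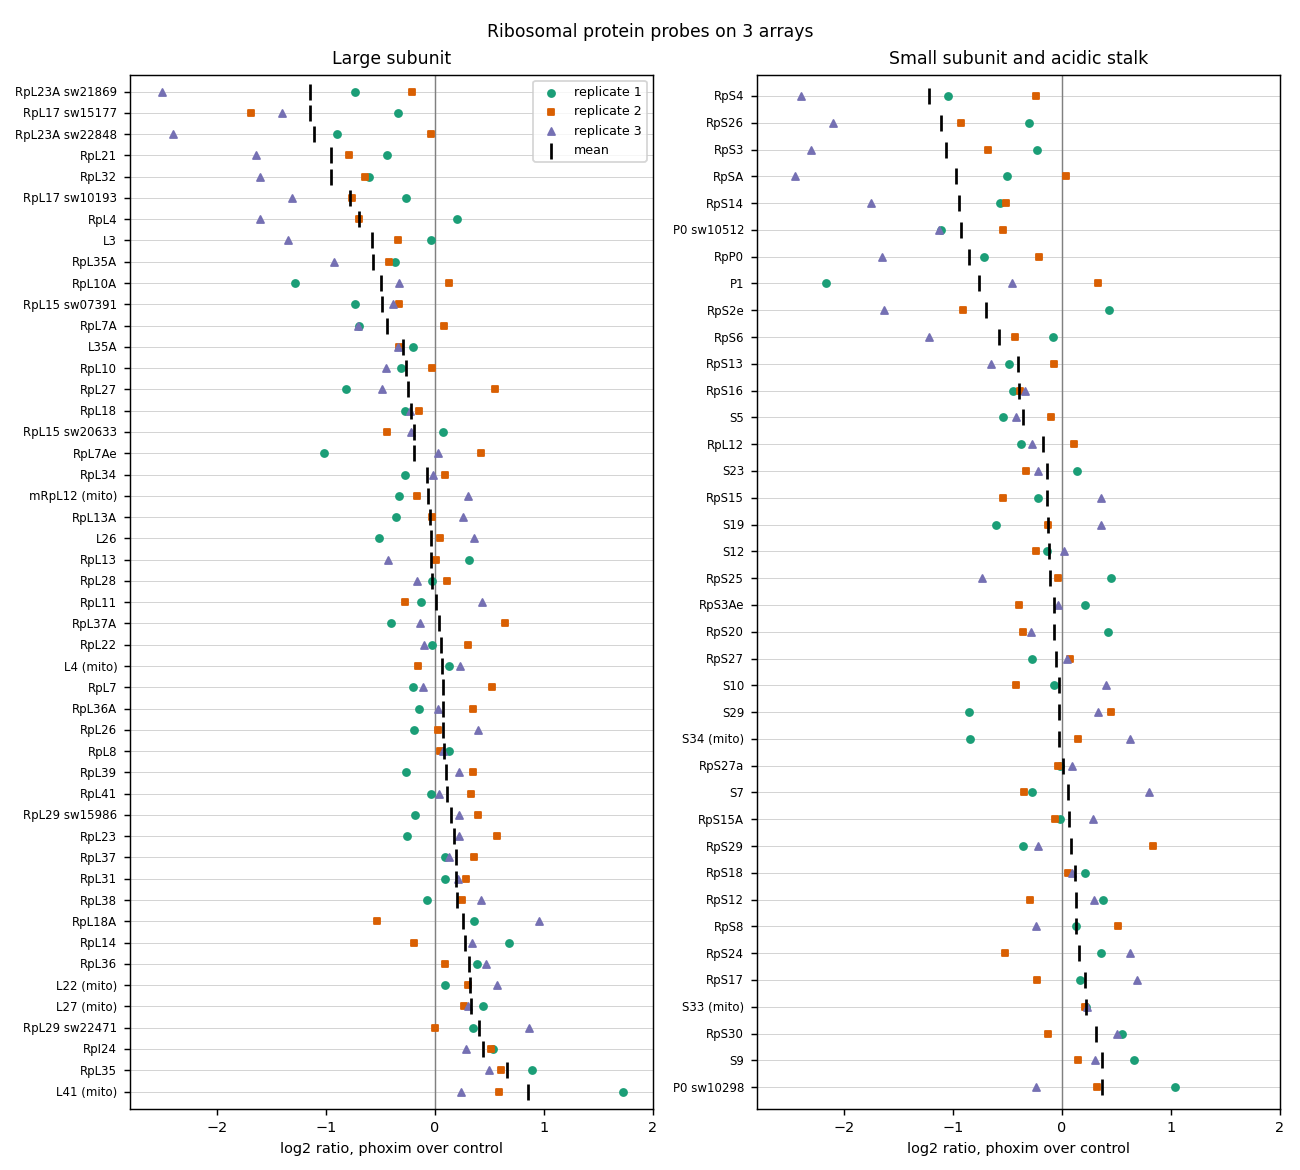
Log2 ratio of phoxim over control (x axis) for 86 of the 88 tested ribosomal protein probes (y axis), with 1 marker per array and a bar at the mean, sorted by the mean; "mito" marks the 7 probes with mitochondrial annotation, and a probe name is added where a symbol has several probes. Means run from -1.22 for RpS4 to 0.85 for the mitochondrially annotated L41 probe, and the lowest single values are mostly those of replicate 3.

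The acidic stalk was measured by 5 probes, 3 of them for P0 and the others for P1 and RpL12. Its median log2 ratio of -0.76 was the value of the P1 probe, and became -0.44 with median centring and -0.45 with the deposited ratios. Under those settings the medians of all tested probes were 0.24 and 0.09. At an unadjusted p under 0.05, 2 probes were lower, both for P0, against 4.81% of all tested probes. By array the medians of the stalk were -0.71, 0.12 and -0.46, so replicate 2 did not share the lower level, and without replicate 1 the median of the stalk was -0.08. P0, also called RpP0, anchors the stalk to the ribosomal RNA and was measured by 3 probes. The RefSeq RpP0 probe (sw08184) gave intensities of 16802, 19034 and 15609 in phoxim RNA and 29840, 20261 and 30908 in control RNA of replicates 1, 2 and 3. Every phoxim value lay below every control value, with the smallest distance in replicate 2. Its log2 ratio was -0.86 ± 0.73 (SD, n = 3; limma adjusted p = 0.45).

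The weak second P0 probe (sw10512) had intensities of 95, 164 and 74 in phoxim RNA and 338, 138 and 312 in control RNA. In replicate 2 the phoxim intensity was the higher one, and the log2 ratio was below 0 only after normalization. The log2 ratio of this probe was -0.93 ± 0.33 (SD, n = 3; limma adjusted p = 0.39), and phoxim RNA was above background on 2 arrays. Another probe (sw10298), described as similar to P0 and without a gene ID, gave log2 ratios of 1.03, 0.32 and -0.24. The probes for P0 thus did not move as one, and the difference between their lowest and highest mean was 1.30 on the log2 scale, the widest of any protein with several tested probes.

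P1 (sw22920) forms dimers with P2 at the tip of the stalk. Its intensities were 1519, 1461 and 1384 in phoxim RNA and 7488, 777 and 1671 in control RNA. The phoxim values were nearly level, while the control values differed widely and overlapped them. The log2 ratios were -2.17, 0.33 and -0.46, with a mean of -0.76 ± 1.28 (SD, n = 3; limma adjusted p = 0.59), so the mean rests on replicate 1. RpL12, which holds the base of the stalk together with P0, had log2 ratios of -0.37, 0.12 and -0.27.

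Among large-subunit proteins, 6 of 43 probes were lower and 1 was higher at an unadjusted p under 0.05, against 4.81% and 6.13% of all tested probes. The median log2 ratio was -0.03 (0.31 with median centring and 0.22 with the deposited ratios, where all probes had 0.24 and 0.09). Proteins around the exit of the tunnel, through which the growing chain leaves, included the lowest and the highest mean of the 43. The 13 probes of this group had a median of 0.08, with 4 lower and 1 higher at that level. The median was 0.43 with median centring and 0.33 with the deposited ratios, and it turned to -0.07 with the labelled dye order and -0.02 without replicate 2. The 4 were the pairs of probes for RpL17 and RpL23A.

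RpL17 sits at the rim of the tunnel exit. Its first probe (sw15177) had intensities of 20217, 10541 and 12450 in phoxim RNA and 27668, 31218 and 21485 in control RNA. The groups did not overlap, and replicate 2 showed the widest gap. Its log2 ratio was -1.14 ± 0.71 (SD, n = 3; limma adjusted p = 0.39). This was the 1 member at least 2-fold lower in replicate 2, where 4.50% of all tested probes were. The other RpL17 probe (sw10193) gave 11804, 9221 and 8475 in phoxim RNA and 15286, 13693 and 14441 in control RNA. Again no value of the groups overlapped, and the log2 ratio was -0.78 ± 0.52 (SD, n = 3; limma adjusted p = 0.45).

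RpL23A, a docking site at the tunnel exit for the particle that directs secretory proteins to the membrane, showed another pattern. Probe sw21869 gave 12429, 11436 and 5052 in phoxim RNA and 22329, 11533 and 19954 in control RNA. Probe sw22848 gave 27598, 31531 and 21208 in phoxim RNA and 56049, 31193 and 66443 in control RNA. Both probes were level in replicate 2 and far apart in replicates 1 and 3, so phoxim and control values overlapped across replicates. The log2 ratios were -0.74, -0.21 and -2.50 for the first and -0.90, -0.03 and -2.40 for the second. Means were -1.15 ± 1.20 and -1.11 ± 1.20 (SD, n = 3; limma adjusted p = 0.45 for each), the closest pair of any protein with several probes.

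RpL35, a neighbour of RpL23A and RpL17 at the tunnel exit, stood on the other side. Intensities were 9847, 9719 and 12590 in phoxim RNA and 5620, 5300 and 6238 in control RNA. Every phoxim value was above every control value, as for 863 of the 6154 tested probes. Its log2 ratio of 0.66 ± 0.20 (SD, n = 3; limma adjusted p = 0.45) did not pass either. The other members of the group were RpL22, RpL26, RpL31, RpL37, RpL38, RpL39 and RpL23, which is placed at the subunit interface in other eukaryotes, and their means lay between -0.04 and 0.20.

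RpL21 and RpL32 are large-subunit proteins outside that group, and the RpL32 message serves widely as a reference in expression assays of insects. Probe sw04583 for RpL21 gave 22823, 21235 and 17877 in phoxim RNA and 33527, 34897 and 34778 in control RNA. Its control values were nearly level and stood above all phoxim values. The log2 ratio was -0.96 ± 0.62 (SD, n = 3; limma adjusted p = 0.42).

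For RpL32 (sw10015) the intensities were 18113, 13534 and 11341 in phoxim RNA and 29854, 19081 and 22633 in control RNA. The groups did not overlap, and the gap was narrow between the highest phoxim value and the lowest control value. The log2 ratios of -0.61, -0.64 and -1.61 averaged -0.95 ± 0.57 (SD, n = 3; limma adjusted p = 0.41).

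On the peptidyl transferase side, where peptide bonds form, 4 probes had a median log2 ratio of -0.42 and none reached an unadjusted p under 0.05. That median was -0.09 with median centring, -0.15 with the deposited ratios and -0.18 without replicate 3. All tested probes had medians of 0.24, 0.09 and 0.01 in the same order. RpL4, which lines the tunnel, had 0.20, -0.69 and -1.60, and L3, which reaches toward the catalytic centre, had -0.04, -0.34 and -1.35. RpL10, a protein added late in subunit assembly, had -0.31, -0.02 and -0.45. RpL8 was nearly level on each array, with 0.13, 0.05 and 0.08. RpL11, which joins the subunit in a particle with the small 5S RNA, had a mean of 0.01 ± 0.37 (SD, n = 3).

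Higher values in the large subunit included those of 2 further probes. A probe the array names Rpl24 (sw15710; RefSeq keeps the placeholder LOC692701), for a protein that bridges the subunits in other eukaryotes, gave intensities of 37898, 43664 and 49814 in phoxim RNA and 28365, 30056 and 24410 in control RNA. The groups did not overlap, with phoxim RNA higher, as for 863 of the 6154 tested probes. The log2 ratio was 0.44 ± 0.14 (SD, n = 3; limma adjusted p = 0.58). The L41 probe with mitochondrial annotation (sw05996) gave 2956, 2779 and 4111 against 864, 1311 and 2731. Its log2 ratios of 1.72, 0.59 and 0.24 averaged 0.85 ± 0.78 (SD, n = 3; limma adjusted p = 0.46), whereas the cytosolic RpL41 probe (sw10518) had a mean of 0.11.

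In the small subunit 4 of 33 probes were lower and 0 were higher at an unadjusted p under 0.05, against 4.81% and 6.13% of all tested probes. The median log2 ratio was -0.07 (0.26 with median centring and 0.18 with the deposited ratios, where all probes had 0.24 and 0.09). RpS4, a protein of the body of the subunit that binds ribosomal RNA early in assembly, had the lowest mean of all members. Its intensities were 16726, 15176 and 9933 in phoxim RNA and 37381, 16096 and 33737 in control RNA. As for RpL23A, the RNAs were close in replicate 2 and far apart in the other 2 replicates, and the groups overlapped slightly. The log2 ratios of -1.04, -0.24 and -2.39 averaged -1.22 ± 1.09 (SD, n = 3; limma adjusted p = 0.43).

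Proteins of the platform, beside the channel through which the message leaves, had a median log2 ratio of -0.37 over 8 probes. At an unadjusted p under 0.05, 2 were lower, against 4.81% of all tested probes. With median centring or the deposited ratios the median was -0.03, where all probes had 0.24 and 0.09. RpS26, which contacts the message at the exit, had intensities of 18033, 16994 and 10534 in phoxim RNA and 24011, 30258 and 29386 in control RNA. The lowest control value exceeded the highest phoxim value. Its log2 ratio was -1.11 ± 0.91 (SD, n = 3; limma adjusted p = 0.43).

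RpS14, a neighbour of RpS26 on the platform, had 34605, 33679 and 28338 in phoxim RNA and 56038, 47608 and 56307 in control RNA. Its groups were well apart, and the log2 ratio was -0.95 ± 0.70 (SD, n = 3; limma adjusted p = 0.43). RpSA, also known as the laminin receptor-like protein, had log2 ratios of -0.51, 0.04 and -2.45, a mean of -0.97 that rests on replicate 3.

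On the side where the message enters and is decoded, 9 probes had a median of -0.12. That median was 0.22 with median centring and 0.20 with the deposited ratios, where all probes had 0.24 and 0.09. At an unadjusted p under 0.05, 1 was lower, RpS3, against 4.81% of all tested probes. RpS3, a protein of the message entry channel, had control intensities of 70110, 54017 and 75826, at the ceiling of their channel on all 3 arrays. Phoxim RNA gave 54634, 33904 and 26439, below that ceiling. The log2 ratios of -0.23, -0.67 and -2.30 averaged -1.07 ± 1.09 (SD, n = 3; limma adjusted p = 0.45). With control RNA at the ceiling this normalization gives at least 2.10-fold lower, but the size depends on the normalization, since the log2 ratio was -0.73 with median centring and -0.35 with the deposited ratios.

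Higher means in the small subunit were small. S9, a protein on the message entry side, gave 1102, 1596 and 1316 in phoxim RNA and 675, 990 and 953 in control RNA. The groups did not overlap, with phoxim RNA higher, as for 863 of the 6154 tested probes. The log2 ratio was 0.37 ± 0.26 (SD, n = 3; limma adjusted p = 0.64). RpS30, made in animals as a fusion with a ubiquitin-like peptide, had log2 ratios of 0.55, -0.12 and 0.50. The S33 probe, with mitochondrial annotation, had 0.22, 0.21 and 0.23, almost the same on each array.

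**Figure D2:**
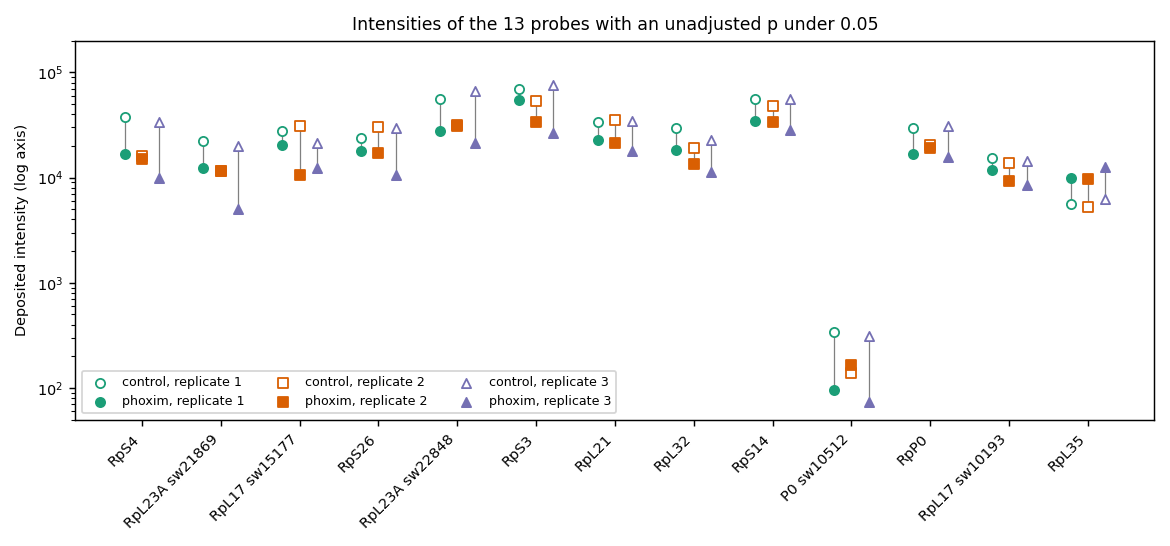
Deposited intensities (log axis) of the 13 members with an unadjusted p under 0.05, with control RNA as open and phoxim RNA as filled markers and a line joining the RNAs of 1 array. For RpL23A, RpS4 and both P0 probes the RNAs of replicate 2 nearly meet, whereas RpL17, RpL21, RpL32, RpS14 and RpS26 are separated on each array, and RpL35 is the only one higher in phoxim RNA.

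The intensities before normalization gave a simpler count. In 9 members (10.2%) every phoxim value lay below every control value, against 1.61% of all tested probes, and in 14 of 88 (15.9%) every phoxim value lay above every control value, as in 863 of the 6154 tested probes. The members' share in the higher direction was near that of all probes. The 9 were the probes of RpL17 (both), RpL21, RpL32, RpS14, RpS26 and RpP0, with RpS6 (sw02103) and RpL35A (sw17639), which were chosen here after their values were seen. RpS6, the protein that S6 kinase phosphorylates, gave 20766, 19360 and 17809 against 23814, 24322 and 26146 in control RNA. The separation was complete but narrow, and the log2 ratio was -0.58 ± 0.58 (SD, n = 3; limma adjusted p = 0.54). The sum over all members was 1376086, 1439716 and 1621222 in phoxim RNA and 1628340, 1457296 and 1408177 in control RNA. Summed intensity was thus lower in phoxim RNA in replicate 1, close in replicate 2 and higher in replicate 3. The sum over all tested probes was higher in phoxim RNA on each array.

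The 12 lower probes were chosen by p from these same 3 arrays, which favours a shared sign. Each of them was lower on all 3 arrays, and 11 were lowest in replicate 3. The 12 stood for 9 proteins, lay in 9 of the 48 printing blocks of the array, and had means between -0.78 and -1.22. No member was at least 2-fold lower or higher on all 3 arrays, where 0.309% and 0.699% of all probes were. In replicate 3 alone 17 members (19.3%) were at least 2-fold lower, against 11.7% of all probes, and 0 were 2-fold higher, against 6.43%. In replicate 1 the counts were 5 lower (5.68%, against 5.80%) and 2 higher (2.27%, against 16.0%). Replicate 2 had 1 lower (1.14%) and 0 higher, against 4.50% and 3.07% of all probes.

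The probes that were low in replicate 3 were followed in the other arrays. Of the 17, 16 lay below 0 in replicate 2 as turned by the header, and 15 in replicate 1. With the labelled dye order those 16 would lie above 0 in replicate 2. As turned by the header, the medians of the 17 were -0.44, -0.54 and -1.65 in replicates 1, 2 and 3. The 17 lay in 14 printing blocks and the other 71 members in 39. Of the other 71 members, 43 (60.6%) lay below 0 in replicate 1, 32 (45.1%) in replicate 2 and 28 (39.4%) in replicate 3. For comparison, of the 723 tested probes of any gene that were at least 2-fold lower in replicate 3, 80.5% lay below 0 in replicate 2 and 60.4% in replicate 1. Of the remaining 5431 tested probes, 40.7%, 51.4% and 43.3% lay below 0 in replicates 1, 2 and 3.

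**Figure D3:**
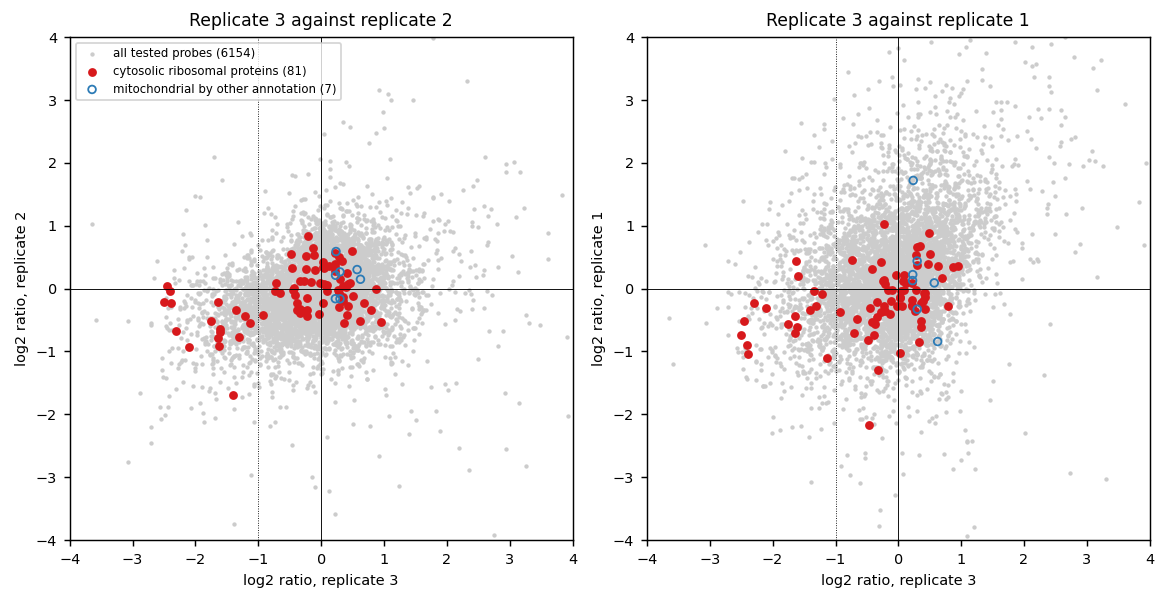
Log2 ratio of phoxim over control in replicate 3 (x axis) against replicate 2 (left) and replicate 1 (right), with the 81 cytosolic ribosomal protein probes in red, the 7 probes with mitochondrial annotation as blue circles and all 6154 tested probes in grey; a dotted line marks a 2-fold lower value in replicate 3. Of the 17 members left of the dotted line, 16 lie below 0 in replicate 2, turned by the header's dye order, and 15 in replicate 1. With the labelled order those 16 would lie above 0 in replicate 2. Some grey probes lie outside the axes.

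Proteins measured by several probes show how far probes of a message can differ. For 10 proteins there were at least 2 tested probes that the descriptions give the same name. In 5 of them all probes had means of the same sign, and in 3, RpL17, RpL23A and RpL35A, all probes were lower on all 3 arrays. RpL35A, a large-subunit protein, had means of -0.57 and -0.29, and the first of these is among the 9 without overlap. RpL15 had -0.48 and -0.19, and RpL29 0.15 and 0.40. Signs differed in the others, among them RpL26 (-0.04 and 0.08), S12 (-0.12 and 0.13), S29 (-0.02 and 0.09) and P0. The median difference between the lowest and highest probe of a protein was 0.27.

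Other genes that serve translation were read from lists of descriptions. Of 58 probes for translation factors, which start, extend and end the chain, 32 were tested. Their median log2 ratio was -0.31, and 0 passed an adjusted p of 0.05 with limma. At an unadjusted p under 0.05, 6 were lower and 0 higher, against 4.81% and 6.13% of all tested probes. By array the medians were -0.56, 0.17 and -0.43, so replicate 2 again stood apart. The median over the arrays was -0.09 without replicate 1, where that of all tested probes was -0.02. With median centring the factors had a median of -0.02, but all tested probes then had 0.24. Elongation factor 2 (LOC733027), which the stalk recruits to move the ribosome along the message, had log2 ratios of -0.90, -1.21 and -2.26. Initiation factor 4B (sw03287), a helper of the helicase that unwinds the start of the message, had -0.98, -1.26 and -2.01. The cap-binding initiation factor 4E-2 (LOC100037428) had -1.82, -0.51 and -1.21. All 3 were lower on all arrays, and none passed, with limma adjusted p-values of 0.32, 0.30 and 0.37.

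Mitochondrial ribosomal proteins form a separate ribosome that translates the organelle's own genes. Of 40 further probes described as such, 37 were tested, with a median of 0.01 (0.30 with median centring, where all probes had 0.24). By array their medians were -0.36, 0.32 and 0.03. At an unadjusted p under 0.05, 1 was lower and 2 were higher, where 4.81% and 6.13% of all tested probes were. Genes for building ribosomes in the nucleolus had 27 of 43 probes tested, a median of 0.01 (0.32 with median centring), and 0 lower and 2 higher at that level. For signalling through S6 kinase and the insulin receptor only 3 of 18 probes were bright enough, and their means lay between -0.12 and 0.17. None of these probes passed an adjusted p of 0.05 with limma.

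**Figure D4:**
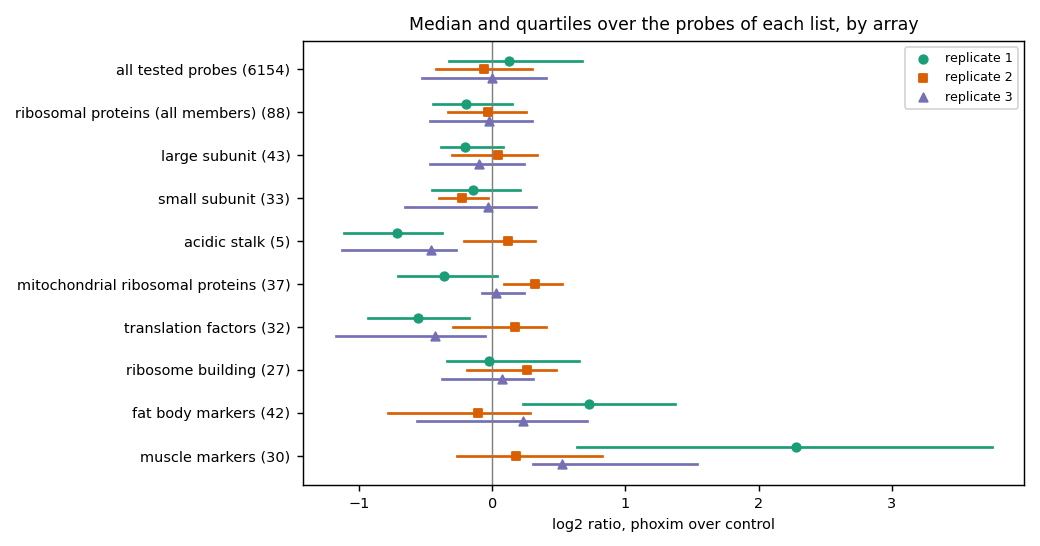
Median (marker) and quartiles (line) of the log2 ratio of phoxim over control in each of the 3 arrays, for all tested probes and for lists of genes, with the number of tested probes in brackets. The acidic stalk and the translation factors lie below 0 in replicates 1 and 3 and above it in replicate 2, and the muscle markers reach a median of 2.28 in replicate 1.

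Markers of the labelled tissue and of other tissues were measured in the same RNA. Fat body markers, such as storage proteins and lipophorins, were matched by words in the description. The match also took in a low density lipoprotein receptor-related protein, so the list is wider than such markers. Of the 81 probes matched 42 were tested, and their summed intensity was 474878 to 781610 in phoxim RNA and 470482 to 578026 in control RNA. Their median log2 ratio was 0.24, by array 0.72, -0.11 and 0.23. Muscle markers differed more between the RNAs. Of 60 such probes 30 were tested, and 25 of them had a mean above 0. At an unadjusted p under 0.05, 13 were higher and 1 was lower, against 6.13% and 4.81% of all tested probes. Their summed intensity was 117970 to 184488 in phoxim RNA and 35937 to 94373 in control RNA, and their median log2 ratio was 2.28, 0.18 and 0.52 in replicates 1, 2 and 3. The other 30 muscle probes were too weak to test.

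The summed muscle intensity was higher in phoxim RNA on each array, but 0 muscle probes passed an adjusted p of 0.05 with limma (smallest 0.28), and their median of 1.08 over the arrays was 0.33 without replicate 1. In replicate 2, where the muscle median was lowest, RpS4, RpL23A, RpS14, RpP0 and the weak P0 probe sw10512 were closest to 0. RpL21, RpL32, RpS3, RpS26 and both RpL17 probes were instead closest to 0 in replicate 1, where the muscle median was highest. The RpL17 probe sw15177 was lowest in replicate 2. In replicate 3, where 11 of the 12 lower probes were lowest, the muscle median was well below that of replicate 1. Summed markers of epidermis and trachea, with 25 of 116 probes tested, reached 73442 in control RNA of replicate 2 and lay between 20144 and 41833 in the other RNAs. Markers of hemocytes (13 of 45 probes tested), midgut (17 of 103), silk gland (5 of 16), Malpighian tubules (11 of 24) and gonad (17 of 62) had median log2 ratios of 0.30, 0.11, -0.33, -0.51 and -0.07. The part of other tissues in the ribosomal protein values was not tested.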

How the data were processed

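Total RNA was copied with T7 RNA polymerase and the Cy5 or Cy3 dye was put in during reverse transcription, per the labels' protocols. The intensity values were deposited as background-subtracted, judged from blank spots near 0. The scanner is not named in the labels or files, nor is the background method. Per the file headers, the deposited ratio is phoxim over control, normalized by the authors, and the deposited log2 table is its logarithm. The members and gene lists were chosen with earlier results of these data known. Intensities were corrected with normexp (offset 50) and loess within each array, with control spots at weight 0, in limma 3.58.1 (R 4.3.3). Probes were kept where, on each of the 3 arrays, 1 channel or both lay above the 95th percentile of the blank negative controls (31.8 to 101 in Cy5, 176 to 307 in Cy3), which left 6154. Ratios were turned by the header's dye order and tested against 0 in a two-sided test with lmFit and eBayes, and p-values were adjusted by Benjamini-Hochberg over all 6154 probes. The number of arrays limits the precision. A spot that reached 99% of the maximum of its channel counted as saturated, and a bound on a fold sets the saturated control mean against the phoxim mean per channel after loess and Aquantile, open to dye bias. The test was checked on simulated data with independent noise, so the check does not measure its power on these arrays. Gene IDs of 68 member probes (63 genes) all matched RefSeq names, and 0 of these genes were direct neighbours. Members are named where the unadjusted p was under 0.05, where the p was among the 3 smallest of the large subunit, small subunit or stalk in each direction, as ranges for proteins with several probes, or where they were at least 2-fold apart on every array (0 were). Further members illustrate a role group or a count and were chosen after their values were seen, as were the translation factors named. Values of 1 protein are not reported here by name, though its probes enter the counts.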

Additional observations from a re-analysis of the deposited data

How the results depend on the processing

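The test of the ratios is itself paired, since each array joins a treated and a control sample of the same replicate number, and no further block could be added. Across all alternatives and with each replicate left out, 0 members passed an adjusted p of 0.05 with limma. The 20 probes named by rule kept the sign of their mean in all 258 alternative values, and the smallest adjusted p among them was 0.17. Most of these signs could not have turned. The probes were chosen from the same data, and filters on probes leave a probe's mean as it was. Leaving out an array, array weights or a dye term cannot turn a probe with the same sign on every array. The kept signs are therefore no test of the probes. The 12 members lower at an unadjusted p under 0.05 (13.6%, all probes 4.81%) became 6 without normexp (6.82%, all probes 5.02%). Median centring gave 3 (3.41%, all probes 1.67%) and loess by printing block 7 (7.95%, all probes 5.13%). The authors' deposited ratios gave 2 (2.27%, all probes 4.58%) and a dye term 2 (2.27%, all probes 2.58%). The labelled dye order gave 0 (all probes 1.06%), and array weights gave 18 (20.5%, all probes 9.47%). Without replicate 1 there were 13 (14.8%, all probes 8.03%). Without replicate 2 there were 7 (7.95%, all probes 3.82%), and without replicate 3 there were 0 (all probes 1.38%). The 1 higher member became 0 without normexp, with block loess, the labelled order, a dye term or array weights, 2 with median centring, 3 with deposited ratios and 3 without the dim filter, and 0 to 1 with a replicate left out (0 without replicate 1 or 2). In that direction the members' share was at most 3.41%, against 3.48% to 11.1% of all probes across these settings. The 23 members lower on every array (26.1%, all probes 17.1%) became 13 with median centring (14.8%, all probes 9.8%). They became 7 with deposited ratios (7.95%, all probes 15.9%) and 12 with the labelled order (13.6%, all probes 9.51%). With replicates 1, 2 and 3 left out in turn they were 30 (34.1%, all probes 33.7%), 35 (39.8%, all probes 26.6%) and 33 (37.5%, all probes 22.9%). The 12 higher on every array became 29 with deposited ratios and 15 to 25 with a replicate left out (25 without replicate 1, 20 without replicate 2), and 8 without the probes of mitochondrial annotation, an alternative chosen after seeing the data. Leaving out 1 of 3 arrays raises such counts by construction. Median centring moved the median of the members to 0.29 and of all probes to 0.24, and deposited ratios moved them to 0.18 and 0.09. Elsewhere the cause was not tested. The RpL17 probe sw15177 went from -1.14 to -0.02 with the labelled order. Among the other probes named by rule, the values moved between 0.04 and 1.21 for the higher and between -1.72 and -0.06 for the lower ones. The level of RpS3 is limited by saturation, and those of P0 (sw10512), S23 and S7 by weak phoxim signal.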
